A study of Mus musculus with 4 samples.

Results

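Sensory neuropeptide genes were followed in 4 RNA libraries from cultured mouse sensory neurons. The members were the 5 genes Tac1, Calca, Calcb, Gal and Adcyap1, taken by symbol, with no threshold on their values, out of 11258 genes in the deposited table. They were listed there as 11 of 14236 transcripts. The cultures were dissociated dorsal root ganglion (DRG) neurons of mouse embryos at day 13.5, kept on a poly-D-lysine and laminin coat with 50 ng/ml nerve growth factor, 5-fluoro-2'-deoxyuridine and uridine. The 2 PROM1 libraries came from cultures given a lentivirus for overexpression of human PROM1 (CD133), a cholesterol-binding membrane glycoprotein, and the 2 Control libraries from cultures given a pLKO lentivirus. The virus was added on day 2 in vitro in both groups, and the series text calls the samples biological duplicates. The labels do not state the mouse strain, the promoter that drives PROM1 or the share of transduced cells. The level of PROM1 was not analysed here.

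Neuropeptides are cut from longer precursor proteins, packed into dense-core vesicles and released from both the central and the peripheral ends of peptidergic sensory neurons, many of them nociceptors. Tac1 encodes the precursor of substance P and neurokinin A. Calca and Calcb encode the precursors of alpha- and beta-CGRP (calcitonin gene-related peptide), a vasodilator. Gal encodes galanin and Adcyap1 encodes PACAP, which activates adenylate cyclase. Nerve growth factor maintains Tac1 and Calca in sensory neurons, and cut or cultured neurons are known to raise Gal and Adcyap1.

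None of the 5 genes differed between PROM1 and Control cultures by the test across all genes. Tac1 and Adcyap1 were lower in both PROM1 libraries than in both Control libraries, Calca had a higher mean that rested on 1 Control library, and Gal and Calcb had nearly equal means on the log2 scale. The larger differences lay inside the genes. For Calca, the listed transcript with most of the FPKM was not the same in PROM1 and in Control cultures. For Gal, the same transcript was the largest in all 4 libraries, but another held 34.6% and 49.95% of the gene in PROM1 and under 0.1% in Control. No transcript of either gene was called. Values are FPKM of each library (fragments normalised to transcript length and library total), summed over the listed transcripts of a gene, so a gene total covers those transcripts alone. Differences are on the log2(FPKM + 1) scale, PROM1 minus Control, from limma with Benjamini-Hochberg adjustment over the 10108 genes whose mean reached 1 FPKM, and a gene was called at an adjusted p under 0.05. All 5 members passed that minimum, 0 of 5 were called, and 0.0198% of all tested genes were called.

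Some facts of the libraries bear on all values below. FPKM summed to between 357805 and 379596 in the PROM1 libraries and to between 361232 and 385963 in the Control libraries, and no read counts are given, so the depth is unknown. All 9 listed genes of a set of 10 sensory neuron markers were detected in every library, led by Prph (894.4 and 1253 FPKM in PROM1, 909.2 and 1065 FPKM in Control) and Tubb3 (546.7 and 616.0 FPKM in PROM1, 695.5 and 691.7 FPKM in Control). The summed neuron markers were at 2154 and 2569 FPKM in PROM1 and at 2256 and 2458 FPKM in Control. The listed glial markers (5 of 10) summed to 44.7 and 45.9 FPKM in PROM1, against 76.5 and 56.3 FPKM in Control. The listed fibroblast markers (3 of 7) summed to 7.94 and 8.48 FPKM in PROM1, against 2.67 and 4.37 FPKM in Control. The listed macrophage markers (2 of 6) summed to 1.79 and 1.99 FPKM in PROM1, against 3.799 and 3.51 FPKM in Control, and Acta2, the only listed gene of 6 for endothelium and pericytes, had 3.43 and 1.51 FPKM in PROM1, against 3.63 and 3.83 FPKM in Control. No listed marker was at 0 in all libraries. None of these non-neuronal markers was called (limma), and their part in the neuropeptide values was not tested.

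Tac1 had the highest level of the 5 genes, at rank 366 of 10108 by mean FPKM. It had 133.8 and 92.1 FPKM in PROM1 libraries 1 and 2, against 138.3 and 217.5 FPKM in Control libraries 1 and 2. The groups did not overlap and PROM1 was lower, but PROM1 library 1 and Control library 1 were close to each other. The means were 112.9 ± 29.5 FPKM in PROM1 and 177.9 ± 56.0 FPKM in Control (SD, n = 2 each). The log2 difference was -0.64 ± 0.31 (SE), with an adjusted p of 0.939 (limma). An exact permutation test of 2 libraries against 2 gave a two-sided p of 0.33, the smallest that this design allows. Leaving out Control library 2 gave a difference of -0.31, leaving out PROM1 library 2 gave -0.37 and leaving out Control library 1 gave -0.96, so its size depended on the library left out.

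Both listed Tac1 transcripts keep the coding parts of substance P and neurokinin A. In the GENCODE M21 models (GRCm38, chromosome 6, plus strand) that are paired with these accessions, NM_001311060 lacks the coding exon 4 of NM_009311, which has 45 nt and codes 15 residues between the peptides. The stretch is shown because reads in it, or across the junction that skips it, tell the transcripts apart within the coding sequence. Capitals mark the exon.
NM_009311: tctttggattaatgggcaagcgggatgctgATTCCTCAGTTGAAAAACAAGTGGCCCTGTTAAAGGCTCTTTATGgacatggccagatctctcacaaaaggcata
NM_001311060: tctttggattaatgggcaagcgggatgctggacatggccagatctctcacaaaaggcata

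The exon-containing NM_009311 carried nearly all of the Tac1 level. It had 124.1 and 90.7 FPKM in PROM1, against 138.3 and 217.5 FPKM in Control. The authors' deposited group values for it were 97.8 FPKM in PROM1 and 135.6 FPKM in Control, with q = 0.865. That Control value lay below both Control libraries, so the group values are not means of the library values. The short NM_001311060 had 9.66 and 1.38 FPKM in PROM1, or 7.22% and 1.50% of the gene, against 5.35e-05 and 6.70e-05 FPKM in Control. The PROM1 libraries were far apart from each other for this transcript. In the fit per transcript its log2 difference was 2.33 ± 0.87 (SE), with an adjusted p of 0.923 (limma), and it was 1.25 without PROM1 library 1.

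Adcyap1 had 22.8 and 20.9 FPKM in PROM1 libraries 1 and 2, against 33.0 and 28.2 FPKM in Control libraries 1 and 2. Both PROM1 libraries were below both Control libraries, and the libraries of each group were close to each other. Its means were 21.8 ± 1.36 FPKM in PROM1 and 30.6 ± 3.38 FPKM in Control (SD, n = 2 each). The log2 difference was -0.47 ± 0.20 (SE), which is 1.38-fold lower in PROM1, with an unadjusted p of 0.0635 and an adjusted p of 0.939 (limma). An exact permutation test gave a two-sided p of 0.33. Without each library in turn the difference ran from -0.58 to -0.36. Of the 5 members 2 lay wholly below the Control libraries and 0 wholly above, while 17.5% of all tested genes lay below and 16.5% above in this way. The members' share therefore cannot be read as a result about neuropeptides.

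In the values per library, the lower FPKM of Adcyap1 was listed under 1 of its 2 transcripts. NM_001315504 had 11.9 and 9.94 FPKM in PROM1, against 21.9 and 18.2 FPKM in Control, a log2 difference of -0.82 ± 0.23 (SE) with an adjusted p of 0.923 (limma). NM_009625 had 10.9 and 10.9 FPKM in PROM1, against 11.1 and 10.0 FPKM in Control, and its log2 difference of 0.04 ± 0.21 (SE) was smaller than its error. Both accessions are paired with the same GENCODE transcript of 175 coded residues on chromosome 17, so the PACAP precursor they encode could not be told apart by these models. In the authors' deposited table NM_001315504 had group values of 7.32 FPKM in PROM1 and 15.9 FPKM in Control with q = 0.865. NM_009625 had 15.7 FPKM in PROM1 and 13.4 FPKM in Control with q = 0.902. All of these group values lay outside the range of the libraries of their group.

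The windows before the starts of the members were searched for TGACG. These letters are the core of the cAMP response element, the site of the factor CREB. The search covered 250 bases before a RefSeq gene start (GRCm38.p6) on both strands, and capitals mark a match. The window of Adcyap1, 1 of the 2 genes with lower values in PROM1 and no overlap, is shown as chr17:93198767-93199016 on the plus strand.
Adcyap1 window: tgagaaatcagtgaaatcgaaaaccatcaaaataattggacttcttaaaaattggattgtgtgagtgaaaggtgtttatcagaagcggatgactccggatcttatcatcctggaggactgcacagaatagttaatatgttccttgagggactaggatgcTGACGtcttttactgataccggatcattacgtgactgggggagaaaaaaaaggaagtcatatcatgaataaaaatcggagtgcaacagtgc

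Tac1 held 2 matches, which began 197 and 43 bases before its RefSeq start, although a GENCODE transcript of Tac1 begins inside that window, and Adcyap1 held 1, which began 91 bases before the start shown. Calca held 1 match, 65 bases before its start, and Gal held 0 in its window. At least 1 match was found in 17.8% of all 32851 windows of this length. Calcb had no window in the table. A match is a description of letters and not a binding site.

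Calca had 73.3 and 89.4 FPKM in PROM1 libraries 1 and 2, against 33.4 and 77.6 FPKM in Control libraries 1 and 2. The groups overlapped, with Control library 1 low and the other 3 libraries close together. The means were 81.3 ± 11.4 FPKM in PROM1 and 55.5 ± 31.2 FPKM in Control (SD, n = 2 each). The log2 difference was 0.66 ± 0.41 (SE), with an adjusted p of 0.939 (limma), and an exact permutation test gave a two-sided p of 0.667. Leaving out Control library 1 gave 0.06 and leaving out Control library 2 gave 1.25, so the higher mean in PROM1 rested on Control library 1.

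**Figure D1:**
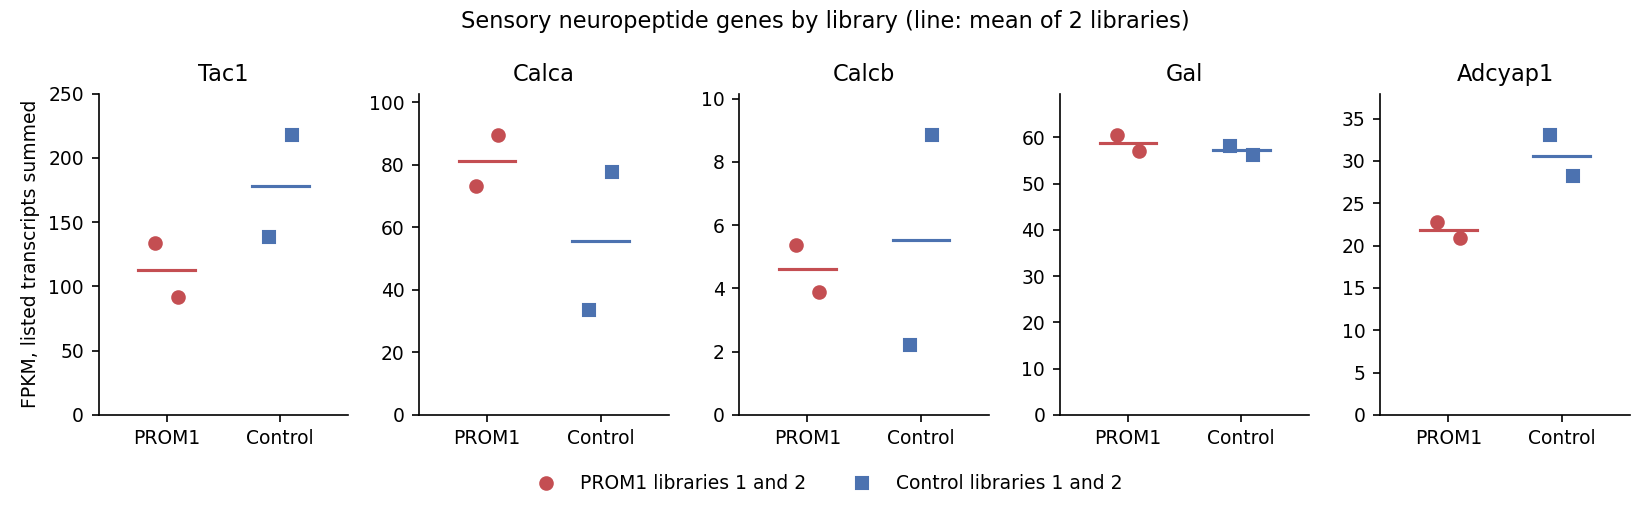
FPKM summed over the listed transcripts (vertical axes, from 0, scaled per gene) in the PROM1 and Control libraries for the 5 neuropeptide genes, with each point a library and each line the mean of 2 libraries. The groups do not overlap for Tac1 and Adcyap1, where the PROM1 libraries are lower, and overlap for Calca, Calcb and Gal; 0 of the 5 genes were called.

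The Calca gene makes the precursor of calcitonin or that of alpha-CGRP by alternative splicing, and neurons are known to make mostly the CGRP form. The GENCODE M21 models paired with the listed accessions (GRCm38, chromosome 7, minus strand) share the first 227 coding bases and then part. The CGRP form codes 128 residues and the calcitonin form 136. The stretch around that point is shown because it separates the peptides, and capitals mark the bases after the last shared base.
Calca CGRP form: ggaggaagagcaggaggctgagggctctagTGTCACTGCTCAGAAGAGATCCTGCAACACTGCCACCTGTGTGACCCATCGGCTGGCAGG
Calca calcitonin form: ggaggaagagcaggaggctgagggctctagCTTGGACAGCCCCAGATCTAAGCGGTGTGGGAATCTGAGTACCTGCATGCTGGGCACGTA

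Of the listed Calca accessions, 2 are paired with the CGRP form and 2 with the calcitonin form. The CGRP form summed to 67.0 and 89.4 FPKM in PROM1, against 31.7 and 75.9 FPKM in Control. It held between 91.5% and 100% of Calca in the PROM1 libraries and between 94.8% and 97.8% in the Control libraries. The calcitonin form summed to 6.24 FPKM in PROM1 library 1 and was listed at 0 in PROM1 library 2, against 1.73 and 1.68 FPKM in Control. The CGRP form thus held nearly all of Calca in both groups, and the PROM1 libraries lay on opposite sides of the Control libraries for the calcitonin form.

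Within the CGRP form, the accession with most of the FPKM was not the same in PROM1 and in Control. NM_001033954 had 61.9 and 67.1 FPKM in PROM1, or 84.5% and 75.1% of Calca, against 5.82 and 20.2 FPKM in Control, or 17.4% and 26.1% of Calca. NM_001289444 had 5.09 and 22.3 FPKM in PROM1, or 6.94% and 24.9% of Calca, against 25.9 and 55.7 FPKM in Control, or 77.4% and 71.8% of Calca. The groups did not overlap for either accession. In the fit per transcript the log2 differences were 2.44 ± 0.61 (SE) for NM_001033954 and -1.71 ± 0.81 (SE) for NM_001289444, each with an adjusted p of 0.923 (limma). Leaving out PROM1 library 1 gave -0.75 for NM_001289444 and leaving out PROM1 library 2 gave -2.68, and for NM_001033954 leaving out Control library 1 gave 1.63. In the authors' deposited table NM_001033954 had 80.3 FPKM in PROM1 and 19.4 FPKM in Control, with p = 0.0045 and q = 0.629, and NM_001289444 had 10.0 FPKM in PROM1 and 44.1 FPKM in Control, with q = 0.865. The deposited PROM1 value of NM_001033954 lay above both PROM1 libraries. Both accessions are paired with the same GENCODE transcript, so the bases that separate them are not shown.

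Calcb, the gene of beta-CGRP, was the lowest of the 5, with 5.36 and 3.88 FPKM in PROM1 libraries 1 and 2, against 2.20 and 8.84 FPKM in Control libraries 1 and 2. The PROM1 libraries lay between the Control libraries. Its means were 4.62 ± 1.05 FPKM in PROM1 and 5.52 ± 4.70 FPKM in Control (SD, n = 2 each), and its log2 difference of -0.01 ± 0.56 (SE) was far smaller than its error (limma adjusted p = 0.999). The sign of that difference turned positive, to 0.80, without Control library 2, and it was -0.82 without Control library 1. A change of Calcb was not detectable at this spread.

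Calca and Calcb are close copies, which matters because short reads can fit both. Their coding sequences were 85.3% identical over 381 aligned bases, and the coding part of the CGRP exon was 96.2% identical over 157 aligned bases. The main stretch of that exon is shown, with the bases that differ in capitals.
Calca CGRP exon: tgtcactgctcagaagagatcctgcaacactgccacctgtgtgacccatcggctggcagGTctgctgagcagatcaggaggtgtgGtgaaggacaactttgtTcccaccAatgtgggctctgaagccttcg
Calcb CGRP exon: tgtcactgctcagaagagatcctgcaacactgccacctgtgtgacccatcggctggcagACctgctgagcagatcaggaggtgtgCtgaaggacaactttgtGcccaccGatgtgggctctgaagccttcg

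Between the whole transcript models, 11 of the 945 windows of 50 nt in the Calca CGRP form were also present in Calcb, and the longest shared run had 60 nt. Exact matches of a whole read to both genes are thus limited to a small part of the transcripts. No source used here says how such reads were divided, so the low level of Calcb is uncertain.

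Gal had 60.4 and 57.1 FPKM in PROM1 libraries 1 and 2, against 58.2 and 56.2 FPKM in Control libraries 1 and 2. The groups overlapped and all 4 libraries were close together. The means were 58.7 ± 2.37 FPKM in PROM1 and 57.2 ± 1.35 FPKM in Control (SD, n = 2 each), with a log2 difference of 0.04 ± 0.18 (SE) and an adjusted p of 0.990 (limma). Without each library in turn the difference ran from -0.004 to 0.08.

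Within the nearly equal Gal sums, the listed FPKM was divided differently between the transcripts in PROM1 and in Control. NM_001329667 had 20.9 and 28.5 FPKM in PROM1, or 34.6% and 49.95% of Gal, against 0.0100 and 0.00205 FPKM in Control. NM_010253 had 39.5 and 28.6 FPKM in PROM1, against 58.2 and 56.2 FPKM in Control, where it held 99.98% and 99.996% of the gene. The groups did not overlap for either transcript. In the fit per transcript the log2 difference of NM_001329667 was 4.66 ± 0.30 (SE), with an unadjusted p of 0.000115 and an adjusted p of 0.157 (limma), and that of NM_010253 was -0.75 ± 0.23 (SE), with an adjusted p of 0.923 (limma). In the authors' deposited table NM_001329667 had 33.8 FPKM in PROM1 and 0.00709 FPKM in Control, with p = 0.0357 and q = 0.865. That PROM1 group value lay above both PROM1 libraries. No GENCODE model was paired with NM_001329667 here, so the precursor it encodes is not described.

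**Figure D2:**
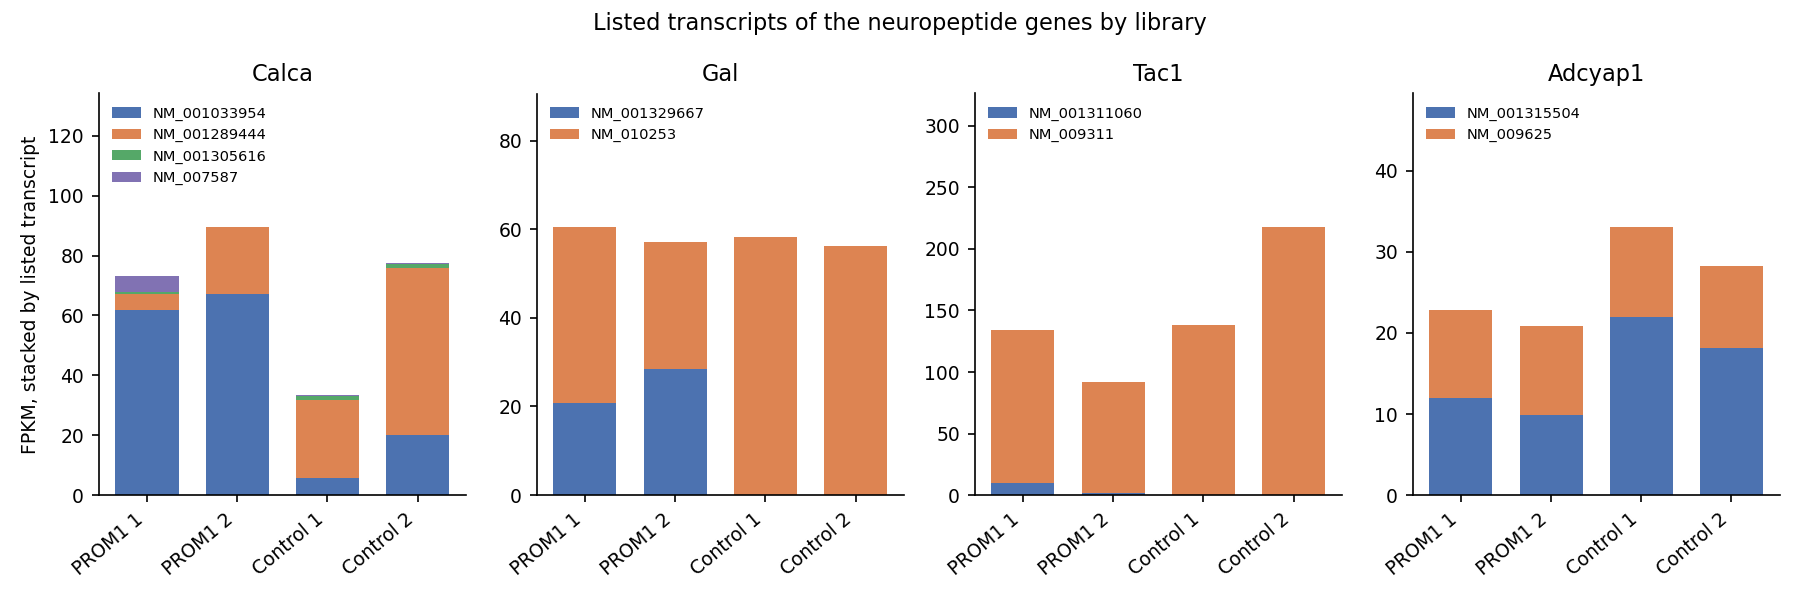
FPKM of each listed transcript (vertical axes, stacked, from 0) in the PROM1 and Control libraries for Calca, Gal, Tac1 and Adcyap1. NM_001033954 of Calca and NM_001329667 of Gal stand high in both PROM1 libraries, and NM_001329667 is near 0 in both Control libraries, while the bar heights of Gal are nearly equal.

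These transcript differences were set beside those of other genes, a step added after the values were seen. Of the 11 listed member transcripts 10 had a mean of at least 1 FPKM, and 3 of them lay above and 4 below the Control libraries, where the shares over 12288 transcripts were 16% above and 17.4% below. None of the 10 was called, and the fit per transcript called 0 of 12288 transcripts (limma), with 4 of the 10 and 4.21% of all transcripts at an unadjusted p under 0.05. The transcripts of a gene share its reads, so they are not independent of each other.

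The distance between isoform shares was then computed for genes detected in every library. It is the percentage of a gene's FPKM that would have to move between its transcripts. It covered 1172 genes with more than 1 listed transcript and a mean of at least 10 FPKM. Between the PROM1 and Control means it was 61.1 percentage points for Calca, 42.3 for Gal, 15.4 for Adcyap1 and 4.36 for Tac1, and the median gene had 12.4. A distance at least that of Calca was found in 2.30% of the genes, at least that of Gal in 12.03%, at least that of Adcyap1 in 43.0% and at least that of Tac1 in 77.1%. For Calca the distance was 18.0 percentage points between the PROM1 libraries and 8.64 between the Control libraries, and for Gal 15.4 between the PROM1 libraries and 0.0136 between the Control libraries. Every distance from a PROM1 to a Control library exceeded both distances within groups for Calca, Gal and Adcyap1, and did so in 6.06% of the 1172 genes.

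Isoform values also varied widely between libraries of the same group. Of the 2931 transcripts of these genes, 609 were under 0.1 FPKM in 1 PROM1 library and over 1 FPKM in the other, and 653 were so in the Control libraries. A value over 1 FPKM in both PROM1 libraries and under 0.1 FPKM in both Control libraries, as for NM_001329667 of Gal and NM_001311060 of Tac1, was found for 32 transcripts (1.09%), and the opposite for 53 (1.81%). The part of the authors' division of reads among isoforms in these values was not tested.

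**Figure D3:**
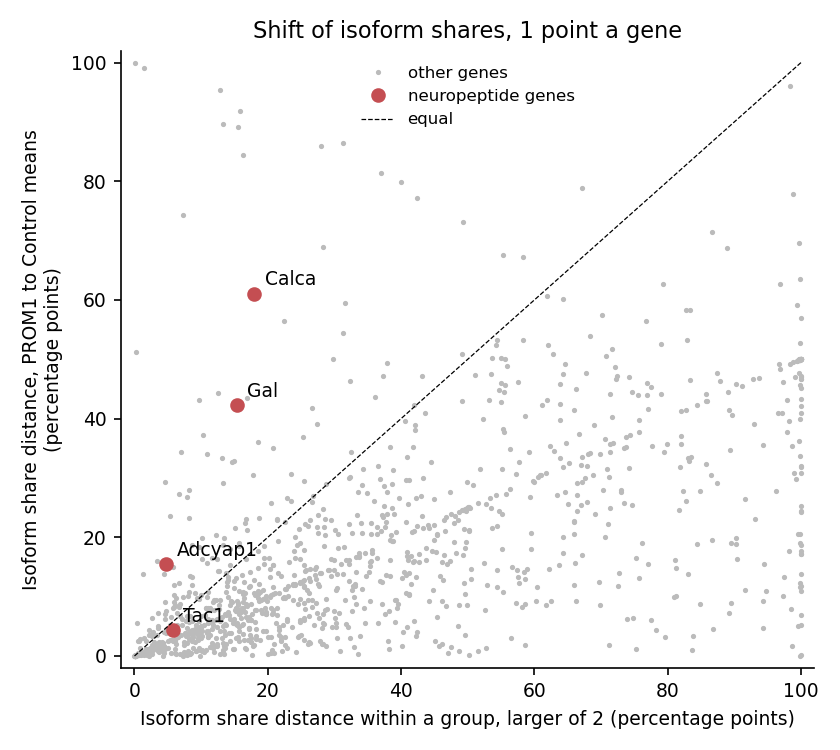
Isoform share distance between the PROM1 and Control means (vertical axis, percentage points) against the larger distance within a group (horizontal axis) for 1172 genes, with 1 point per gene. Calca (61.1) and Gal (42.3) lie well above the dashed line of equal distances and Tac1 (4.36) lies below it.

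Composition of the neuropeptide precursor RNA was described by the share of each gene in the sum of the 5. That sum was 295.6 and 263.3 FPKM in PROM1, against 265.1 and 388.4 FPKM in Control, so the groups overlapped. Tac1 made up 45.3% and 34.97% of it in PROM1, against 52.2% and 56.0% in Control. Calca made up 24.8% and 34.0% in PROM1, against 12.6% and 20.0% in Control. Gal made up 20.4% and 21.7% in PROM1, against 21.9% and 14.5% in Control, and Adcyap1 made up 7.71% and 7.93% in PROM1, against 12.4% and 7.27% in Control. Calcb stayed between 0.829% and 2.28% in the 4 libraries. The shares of Tac1 and Calca did not overlap between the groups and those of Gal, Adcyap1 and Calcb did. Shares of 1 sum move against each other and are not independent. In FPKM itself Calca overlapped, and 17.5% of all tested genes lay wholly below and 16.5% wholly above the Control libraries. No such background was computed for shares, so a change in composition cannot be read from them. In bulk cultures, fewer cells that make a peptide and less of its RNA per cell cannot be told apart.

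**Figure D4:**
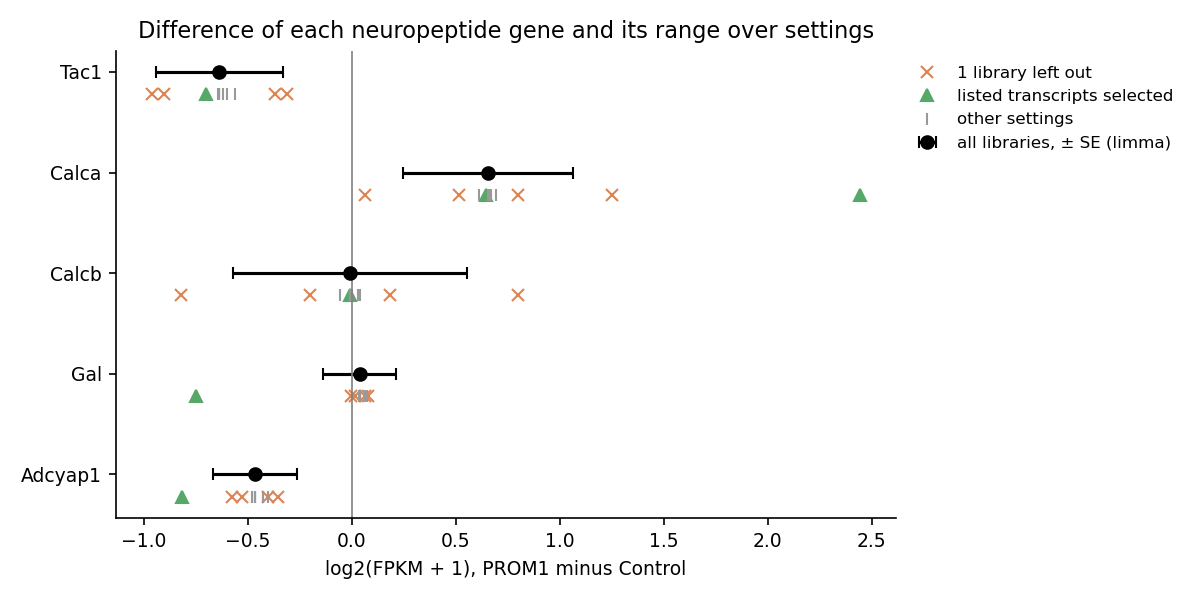
Log2 difference of each neuropeptide gene, PROM1 minus Control, on the log2(FPKM + 1) scale (black points, ± SE), with the differences under other settings below each point. Leaving out 1 library moved Calca between 0.06 and 1.25 and Calcb between -0.82 and 0.80, while the largest listed transcript alone gave 2.44 for Calca and -0.75 for Gal.

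Receptors of the peptides and receptor partners were sparse in the table. Of 14 receptor and receptor-partner genes 5 were listed and 3 reached a mean of 1 FPKM, 1 with a higher and 2 with a lower mean in PROM1, and 0 were called (limma). Galr1, a galanin receptor, had 0.857 and 1.74 FPKM in PROM1, against 4.28 and 2.44 FPKM in Control, a log2 difference of -0.92 ± 0.39 (SE) with an adjusted p of 0.939 (limma). Ramp3 and Ramp2 had log2 differences of -0.43 ± 0.53 and 0.09 ± 0.31 (SE). Both are partners of the calcitonin-like receptor, so Galr1 was the only receptor itself among the 3 tested genes. Tacr1, the substance P receptor, stayed under 1 FPKM, with 0.625 and 0.690 FPKM in PROM1 and 0.837 and 0.651 FPKM in Control. Tacr3, a neurokinin receptor, had 1.04 and 0.430 FPKM in PROM1 and 0.652 and 0.0466 FPKM in Control.

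Other neuropeptide genes were low. Of 28 on the list 9 were listed and 6 were tested, 3 with a higher and 3 with a lower mean in PROM1, and 0 were called (limma). Their median log2 difference was -0.33, against -0.03 over all genes. It was 0.20 without Control library 1 and 0.16 without Control library 2. Each of the 3 genes with a lower mean was high in 1 Control library alone. Npff, the gene of an amidated peptide that modulates opioid responses, had 9.19 and 15.8 FPKM in PROM1, against 4.39 and 3.41 FPKM in Control, with a log2 difference of 1.42 ± 0.32 (SE), an unadjusted p of 0.00587 and an adjusted p of 0.939 (limma). The groups did not overlap for Npff, with PROM1 higher. Somatostatin (Sst) was listed at 0 in both PROM1 libraries and in Control library 1, and at 14.1 FPKM in Control library 2. Neuropeptide B (Npb) was likewise listed at 0 in all but Control library 1, at 5.25 FPKM. These last values rest on 1 library each.

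For the machinery that makes and stores peptides, the median log2 differences between the groups lay near 0. Of 14 processing genes 11 were tested, with 5 higher and 6 lower means in PROM1, 0 called (limma) and a median log2 difference of -0.02. Pcsk2, a prohormone convertase that cuts precursors at paired basic residues, had 22.8 and 17.8 FPKM in PROM1, against 28.4 and 26.8 FPKM in Control, a log2 difference of -0.43 ± 0.21 (SE). Pcsk4, a related convertase, had -0.42 ± 0.30 (SE), and Qpct, which cyclises N-terminal glutamine, had 0.38 ± 0.29 (SE). Of 18 genes of dense-core vesicles 16 were tested, with 7 higher and 9 lower means, 0 called and a median of -0.03. Of the 16 genes 5 lay wholly above and 1 wholly below the Control libraries, where 16.5% of all tested genes lay above and 17.5% below. The granin Chgb (0.31 ± 0.23) and the vesicle phosphatase-like protein Ptprn2 (0.27 ± 0.20) had the largest positive log2 differences there, and the vesicle SNARE Vamp2 (-0.27 ± 0.35) the largest negative difference (SE). Of 10 peptidases that break peptides down 7 were tested, with a median of 0.05 and a range from -0.17 (Thop1) to 0.20 (Ece2), and 0 called (limma).

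Genes that mark nociceptors had lower means more often than higher ones. Of 14 markers 11 were listed and tested, 3 with a higher and 8 with a lower mean in PROM1. Over all tested genes, 53.5% had a lower mean. Of the 11 markers 5 lay wholly below and 1 wholly above the Control libraries. The shares over all tested genes were 17.5% below and 16.5% above. None was called, and the median log2 difference was -0.20. Kit, a receptor kinase, had 9.54 and 6.11 FPKM in PROM1, against 14.5 and 12.9 FPKM in Control, a log2 difference of -0.76 ± 0.28 (SE) with an adjusted p of 0.939 (limma). Gfra3, the artemin receptor subunit of many peptidergic neurons, had 19.0 and 32.1 FPKM in PROM1, against 39.9 and 40.6 FPKM in Control, a log2 difference of -0.68 ± 0.29 (SE). The heat-gated channel Trpv1 had 0.733 and 0.692 FPKM in PROM1, against 0.658 and 2.29 FPKM in Control libraries 1 and 2. Its groups overlapped, and its log2 difference was -0.45 ± 0.46 (SE).

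Of 20 neuronal genes that respond to injury 10 were tested, 3 with a higher and 7 with a lower mean. Their median was -0.10 and 0 were called (limma). Of the 10 genes 2 lay wholly above and 4 wholly below the Control libraries, against 16.5% and 17.5% of all tested genes. The microtubule regulator Stmn2 had 661.6 and 619.0 FPKM in PROM1, against 843.1 and 910.6 FPKM in Control, a log2 difference of -0.45 ± 0.18 (SE). Gadd45a, a stress-response gene, and Hspb1, a small heat shock protein, had log2 differences of 1.08 ± 0.52 and -0.51 ± 0.27 (SE). Gadd45a had 2.26 and 2.44 FPKM in PROM1, against 1.49 FPKM in Control library 1 and a listed 0 in Control library 2. Of 18 genes of the cAMP response, among them its regulators Crtc1 and Crtc2, 11 were tested, with a median of 0.16 and 0 called (limma). Of these 9 had a higher and 2 a lower mean, where 53.5% of all tested genes had a lower mean. The largest differences there were those of Egr1 (1.66 ± 0.40), Pde4b (1.35 ± 0.58) and Fos (1.27 ± 0.40, SE), chosen for their size. All were low. Egr1 had 4.16 and 5.03 FPKM in PROM1, against 0.312 and 1.37 FPKM in Control. Fos had 6.08 and 3.22 FPKM in PROM1, against 0.858 and 1.78 FPKM in Control. Pde4b had 1.09 and 5.14 FPKM in PROM1, against 0.518 and 0.295 FPKM in Control, with PROM1 library 2 standing apart. Of the 11 genes 5 lay wholly above the Control libraries and 1 wholly below, where 16.5% of all tested genes lay above and 17.5% below.

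**Figure D5:**
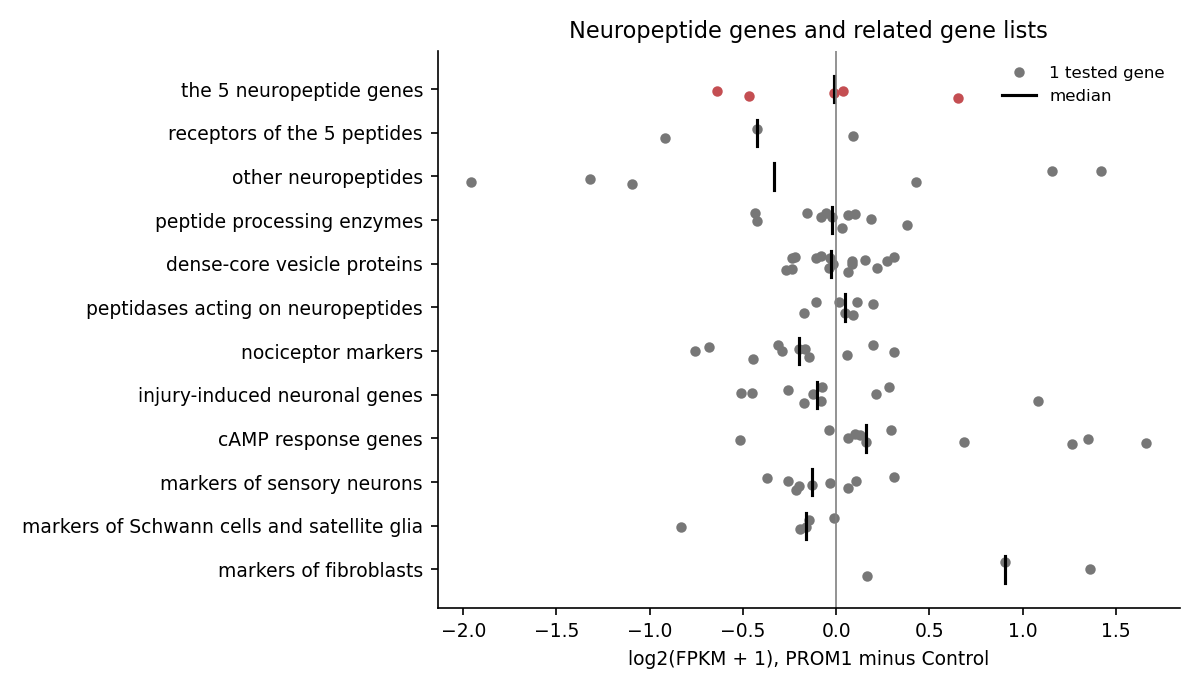
Log2 difference, PROM1 minus Control, of each tested gene (points, horizontal axis, log2(FPKM + 1)) in the neuropeptide set and in 11 related lists, with the median of each list as a bar. Medians of the processing, vesicle and peptidase lists lie near 0, the fibroblast markers (median 0.91, 3 genes) lie highest, and 0 of the genes shown were called.

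For each member, the genes with the most similar pattern were found by the Euclidean distance between log2(FPKM + 1) values centred on their mean over the 4 libraries, among 4022 genes whose mean reached 10 FPKM. With 4 libraries many genes come close by this measure, so the names are a description. The nearest to Tac1 were Prdx6, a peroxiredoxin (distance 0.118), and Gm10012 (0.125). The nearest to Adcyap1 were Car11 (0.0750) and Amph, the gene of amphiphysin (0.0780). The nearest to Calca were Cd9, a tetraspanin (0.150), which had 60.5 and 82.8 FPKM in PROM1, against 27.5 and 70.6 FPKM in Control, and Stoml2 (0.265). The nearest to Gal were Fbxo21 (0.0142) and Nav1 (0.0220), and the nearest to Calcb were Hoxc9 (0.249) and Rps27l (0.319).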

How the data were processed

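CASAVA, TopHat2 and mm9 are listed in the submitters' processing notes, and the labels' protocols give RNA over 200 nt, oligo(dT) selection, a Lexogen SENSE kit and single-end sequencing, with annotation, strand use and versions not given in the sources used here. One FPKM per transcript and library was made by the authors with Cufflinks, per the file headers, and they also deposited an FPKM, p-values and q-values per group comparison. The deposited log2 ratios and −log10 p-values were not used, nor were deposited ratios written as very large numbers where a group was at 0. No steps of whole reads were found in low values (at most 3.62% of 92 to 138 low transcripts shared a ratio between libraries, rounded to 0.01 on the log2 scale), so the depth is unknown and no count test was used.

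Symbols were read from the descriptions for 13995 transcripts and through a RefSeq table (GRCm38.p6) for 241. Transcripts with a missing value (39, no member among them) were left out, and FPKM was summed per symbol. Genes whose mean reached 1 FPKM were fitted with limma 3.58.1 (R 4.3.3) with a variance trend on log2(FPKM + 1), without a replicate block, after the fit was tested on simulated data. Same-numbered libraries deviated together only weakly (r = 0.14 across genes), and 2 pairs are too few to show pairing. P-values of limma set a difference against the spread between 2 libraries a group, moderated with the variance of all fitted genes along the trend. Alternatives were the pseudocount, the filter, scaling, the trend, a replicate block, selected transcripts and leaving out each library.

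The members and gene lists were chosen with earlier results of these data known. The rule for names took all members with their transcripts, all listed receptors, up to 3 genes with the largest absolute difference per list, and the 2 genes nearest to each member in pattern. Prph and Tubb3 were named besides, after their values were seen. Sequences came from RefSeq (GRCm38.p6) and GENCODE M21 models, and coordinates are of GRCm38.p6, not of mm9. Accessions were paired with models through the GENCODE RefSeq table for 10 of the 11 member transcripts. Alignments used Biopython 1.88.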

Additional observations from a re-analysis of the deposited data

How the results depend on the processing

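None of the 5 genes was called under any alternative with a test (adjusted p from 0.730 to 1, limma), and Tac1, Calca and Adcyap1 kept their direction in all of theirs. Calcb turned positive with a pseudocount of 0.1 (0.0404), with libraries scaled to a common median (0.0266) and with quantile normalization (0.000216). Without each library in turn the log2 difference ran from -0.96 to -0.31 for Tac1, from 0.06 to 1.25 for Calca, from -0.82 to 0.80 for Calcb, from -0.00366 to 0.0774 for Gal and from -0.58 to -0.36 for Adcyap1, where Calcb turned positive without PROM1 library 2 (0.18) and Control library 2 (0.80), and Gal negative without PROM1 library 1 (-0.00366). The largest listed transcript alone gave -0.75 for Gal, 2.44 for Calca and -0.82 for Adcyap1. Among member transcripts, NM_009625 of Adcyap1 ran from -0.0234 (without Control library 2) to 0.109, NM_007587 of Calca from -0.43 (without PROM1 library 1) to 2.26, and NM_054084 of Calcb at 0.0404 with a pseudocount of 0.1, at 0.18 without PROM1 library 2 and at 0.80 without Control library 2. With the replicate block the 5 differences were those of the unpaired fit (Tac1 -0.64, adjusted p 0.745 by limma) and no call of a member changed. Where 1 library was left out, the lone library of its group was assumed to vary like those of the other group.

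The count of called genes was 2, with 475 at an unadjusted p under 0.05. It was 0 in the fit per transcript (517 transcripts at an unadjusted p under 0.05) and ran from 2 to 15 without each library in turn (0 to 12 higher and 1 to 5 lower), and 1 gene was called higher with a pseudocount of 0.1. The median of other neuropeptides was -0.77 with a pseudocount of 0.1 and 1.42 with a minimum of 5 FPKM, that of injury-induced genes -0.15 with that minimum, and that of fibroblast markers 1.72 with a pseudocount of 0.1 and 0.31 with 5. Without each library in turn the medians ran from -0.61 to 0.14 for receptors, -0.33 to 0.20 for other neuropeptides, -0.16 to 0.11 for processing enzymes, -0.17 to 0.10 for vesicle proteins, 0.0426 to 0.10 for peptidases, -0.26 to -0.14 for nociceptor markers, 0.17 to 0.44 for cAMP response genes, -0.22 to 0.0664 for neuron markers and -0.36 to -0.12 for glial markers. The cause was not tested. The share of genes with an isoform shift at least that of Calca, 2.30% among genes of at least 10 FPKM, was 6.02% with a minimum of 1 FPKM and 2.15% with 30. For Gal it was 12.03%, 22.8% with 1 and 7.83% with 30, for Adcyap1 43.0% and 55.6% with 1, and for Tac1 77.1%, 81.2% with 1 and 65.0% with 30.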
